A study of Homo sapiens with 6 samples.

Results

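The genes described here encode 8 surface proteins of the LY6/uPAR family: PSCA, LY6E, LY6K, LY6D, LYPD3, LYPD6B, LYNX1 and CD59. They are 8 of the 30327 genes in the count table, and their rows were found by gene symbol. The group was chosen by the fold change of PSCA, which was among the largest falls after depletion of GRB2, so the difference between the groups is a description for these 8 genes: it is given with its standard error and no p, and nothing rests on which of them pass a threshold. The cells were SK-BR-3, an established human breast cancer line with overexpressed HER2, and poly(A) RNA of 6 libraries was sequenced. In 3 of the libraries the cells had received a nontargeting siRNA (si_NC), and in the other 3 an siRNA against GRB2 (si_GRB2), the adaptor that links receptor tyrosine kinases to RAS signalling. All cells of both groups were thus transfected, and 1 cell line was used. No further agent is named, and no allele apart from the genotype label on GRB2 given below. The methods print 1 siRNA against GRB2, a supplementary table of RNA samples lists more than 1, and the labels do not say which of them the sequenced cells received. Nothing in the labels says that the 3 libraries of a group came from separate cultures, so p-values measure the spread between these libraries, which may be technical.

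The titles, the cell type and genotype labels and the series design name overexpression of GRB2 for the treated libraries, as does a passage of the methods. Their descriptions name si_GRB2, and the paper's results describe a knockdown. Counts of GRB2 scaled to library depth with TMM factors (CPM) were 123.9, 129.5 and 125.7 in si_NC and 27.78, 28.15 and 29.59 in si_GRB2. These values go against overexpression and not against the descriptions. The log2 fold change was -2.15 (SE 0.0402, adjusted p = 3.87e-15, edgeR quasi-likelihood test). Library totals on genes ran from 24810378 to 28532480 reads. Of 8 markers of this line, 7 had a mean FPKM (fragments scaled by gene length and library depth) of at least 1 and CDH1 had 9 reads in all 6 libraries together. The summed FPKM of these markers was 3656 to 4058 in si_NC and 3163 to 3298 in si_GRB2. Markers of fibroblasts and of blood summed to less than 1 FPKM in every library. The 3 endothelial markers summed to 3.61 to 4.16 FPKM in si_NC and 2.33 to 2.92 FPKM in si_GRB2, nearly all of it CDH5, which fell (log2 fold change -0.61, adjusted p = 5.56e-06), with 3 reads of PECAM1 in all. In bulk RNA such as this, fewer cells of a kind and less RNA per cell cannot be told apart.

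Proteins of the LY6/uPAR family share a small disulfide-bonded fold with finger-like loops, and most are held in the outer leaflet of the plasma membrane by a glycosylphosphatidylinositol (GPI) anchor. Members act in different ways: CD59 stops the assembly of the membrane attack complex of complement, LYNX1 and LYPD6B modulate nicotinic acetylcholine receptors, and the urokinase receptor PLAUR localizes a protease to the cell surface. PSCA, first described in prostate, and LY6E, LY6K and LY6D have been studied as surface antigens of carcinomas, and several of the genes lie together in a cluster on the long arm of chromosome 8.

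PSCA was the member with the largest difference. It had 619, 600 and 695 reads in the si_NC libraries and 195, 195 and 200 in the si_GRB2 libraries. These reads amounted to 22.1, 23.5 and 24.8 CPM in si_NC and to 7.75, 7.10 and 7.90 CPM in si_GRB2, so that the groups lay far apart and the 3 libraries of each lay close together. The si_NC mean was 23.5 ± 1.36 CPM and the si_GRB2 mean 7.58 ± 0.425 CPM (SD, n = 3 each). PSCA thus kept 0.323 of its si_NC level, a log2 fold change of -1.63 (SE 0.0734). Among the 15801 genes that passed the filter on low counts, PSCA had the 9th largest fall, and among the 10624 genes with a mean of at least 5 CPM the 5th largest. Next to it among the DEGs that fell were CCL2, a chemokine that attracts monocytes, at -1.63 and S100A10, a partner of annexin A2, at -1.50. The spread of PSCA within si_GRB2 (5.60% of the mean) was below the 7.13% that counting about 197 reads gives by itself.

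LYPD3 differed in the opposite direction. LYPD3, also called C4.4A, is a relative of the urokinase receptor that is found on keratinocytes and on carcinoma cells. Its levels were 117.6, 110.3 and 113.3 CPM in si_NC and 170.1, 173.2 and 169.9 CPM in si_GRB2. All 3 si_GRB2 libraries thus lay above all 3 si_NC libraries, with a gap many times the spread within either group. The log2 fold change was 0.59 (SE 0.032), or 1.504 times the si_NC level, which placed it just past the limit of 1.5-fold used for a differentially expressed gene (DEG). Without si_NC replicate 2, si_NC replicate 3 or si_GRB2 replicate 2 it fell short of that limit, with values of 0.56 to 0.61 over all 6 libraries left out in turn. CD59, which shields cells from complement, had 213.5, 203.6 and 206.7 CPM in si_NC and 263.2, 247.0 and 260.6 CPM in si_GRB2. Its groups did not overlap, and its log2 fold change was 0.30 (SE 0.0314). Reads of CD59 can be shared with a readthrough gene annotated over it on the same strand (ENSG00000284969), which held 62.1% as many reads as CD59 and a log2 fold change of 0.29. The value of CD59 is uncertain for that reason.

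The promoters of LYPD3 and CD59, both higher in si_GRB2, are shown because they can be read beside each other: sequence from 250 bases before to 50 bases after the start, from RefSeq on GRCh38.p14, 5′ to 3′ on the minus strand. RefSeq lists several starts for CD59, and the outermost and the innermost listed ones are shown. Capitals mark matches on either strand to one of several motifs, which were searched for as plain letters. The GC box, which SP-family factors bind, was written as GGGCGG, and the CCAAT box by the letters of its name. The TATA box of core promoters was written as TATAAA, without its flanking bases. The AP-1 site, which FOS and JUN proteins bind, was written as TGANTCA, with any base at N. The E-box of MYC and related factors was written as CACGTG. The matches in these windows did not overlap each other.
LYPD3, chr19:43465559-43465858: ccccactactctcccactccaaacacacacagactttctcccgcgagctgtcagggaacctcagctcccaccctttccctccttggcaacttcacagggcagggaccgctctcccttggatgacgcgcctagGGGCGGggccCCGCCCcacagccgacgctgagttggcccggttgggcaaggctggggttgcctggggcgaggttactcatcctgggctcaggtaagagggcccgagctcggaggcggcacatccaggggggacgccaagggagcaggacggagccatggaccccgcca
CD59, outermost start, chr11:33736430-33736729: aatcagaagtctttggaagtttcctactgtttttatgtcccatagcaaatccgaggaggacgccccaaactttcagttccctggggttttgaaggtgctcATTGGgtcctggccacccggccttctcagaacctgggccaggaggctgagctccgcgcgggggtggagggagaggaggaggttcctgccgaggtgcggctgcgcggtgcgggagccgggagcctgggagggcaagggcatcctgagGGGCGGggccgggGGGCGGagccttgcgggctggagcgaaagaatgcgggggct
CD59, innermost start, chr11:33722678-33722977: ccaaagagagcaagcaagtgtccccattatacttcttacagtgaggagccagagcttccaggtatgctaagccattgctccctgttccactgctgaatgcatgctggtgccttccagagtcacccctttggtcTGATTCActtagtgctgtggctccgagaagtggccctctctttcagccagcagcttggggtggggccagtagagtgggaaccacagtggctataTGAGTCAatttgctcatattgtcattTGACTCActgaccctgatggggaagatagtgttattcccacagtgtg

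The LYPD3 window (GC content 67.0%) held 2 GC boxes and 17 CpG dinucleotides. The window at the outermost CD59 start was alike, with 2 GC boxes, 1 CCAAT box, 18 CpG and a GC content of 64.3%. The window at the innermost start of CD59 differed from both: it held 3 AP-1 matches, 1 CpG and a GC content of 51.0%. Among all 35116 promoters of the same length, 44.95% held a GC box, 34.61% a CCAAT box, 11.53% a TATA box, 7.71% an AP-1 match and 7.26% an E-box, with a median of 14 CpG and a GC content of 58.7%. A match is a description of the letters and not a site in use, and the tables of reads per gene do not say which start was used.

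LYNX1, which dampens nicotinic acetylcholine receptors in the brain, had few reads, 200 to 234 per si_NC library and 299 to 328 per si_GRB2 library. Its levels were 7.95, 7.85 and 8.34 CPM in si_NC and 13.03, 11.29 and 11.81 CPM in si_GRB2. The groups did not overlap, and the log2 fold change was 0.58 (SE 0.087), just short of the 1.5-fold limit, which it passed without si_NC replicate 3, si_GRB2 replicate 2 or si_GRB2 replicate 3. LYPD6B, another modulator of these receptors, had 20.8, 19.4 and 21.3 CPM in si_NC and 17.96, 19.05 and 19.55 CPM in si_GRB2. The groups of LYPD6B overlapped, with a log2 fold change of -0.12 (SE 0.06).

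LY6E, an interferon-inducible protein that restricts the entry of coronaviruses, had 185.4, 177.5 and 189.1 CPM in si_NC and 171.1, 165.3 and 152.5 CPM in si_GRB2. The groups did not overlap, but the difference was small, with a log2 fold change of -0.18 (SE 0.0391). LY6D, a marker of differentiating keratinocytes and of early B-cell progenitors, had 8.95, 10.3 and 10.2 CPM in si_NC and 9.06, 7.58 and 7.82 CPM in si_GRB2. One si_GRB2 library thus lay among the si_NC libraries, and the log2 fold change was -0.27 (SE 0.0983). LY6K, an antigen found in testis and in carcinomas, had 7.02, 8.36 and 7.52 CPM in si_NC and 7.95, 7.14 and 7.39 CPM in si_GRB2. The si_GRB2 values of LY6K lay within the range of its si_NC values. The log2 fold change of LY6K was -0.03 (SE 0.1014), and it ranged from -0.09 to 0.04 when each library was left out in turn.

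**Figure D1:**
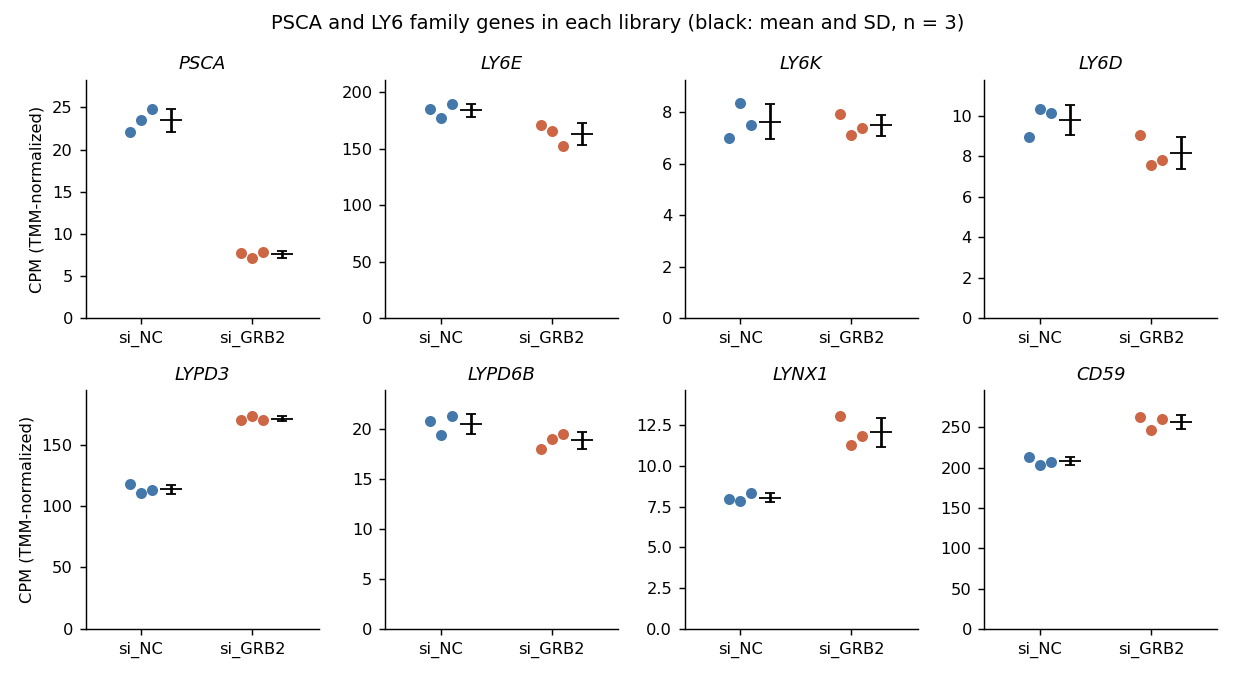
Level of each of the 8 genes in every library, in CPM on a vertical axis of its own for each gene, with si_NC and si_GRB2 side by side. Coloured points are libraries, and black marks are the mean with its SD (n = 3). PSCA lies between 22.1 and 24.8 CPM in si_NC and between 7.10 and 7.90 CPM in si_GRB2, LYPD3, LYNX1 and CD59 lie higher in si_GRB2, and LY6K, LY6D and LYPD6B overlap.

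The difference was thus not shared by the family. Of the 8 log2 fold changes, 5 were negative and 3 positive, with a median of -0.07 beside 0.0019 over all tested genes. All 8 passed the filter on low counts. DEGs (more than 1.5-fold in either direction, with an adjusted p under 0.01) were PSCA and LYPD3, against 2.52% of all tested genes, and PSCA was the only one lower, against 1.69%. With an adjusted p under 0.05 and no limit on fold, 6 members passed, against 30.6% of all tested genes. These were 3 higher (LYPD3, LYNX1 and CD59, background 15.2%) and 3 lower (PSCA, LY6E and LY6D, background 15.5%). LY6D was not past this threshold in 10 of 15 alternatives, among them DESeq2 and the fits on FPKM, and LY6E was not in the 3 fits on FPKM. The groups of 5 members did not overlap, against 42.3% of all tested genes. Nothing is read from these counts, since the contrast itself chose the group.

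Length-scaled values give an order of the genes that depends on the length used. Here that length follows the union of annotated exons (10557 bases for CD59, 1763 for PSCA), whichever transcripts the cells express. In CPM, which are not scaled by length, CD59 (207.9) lay above LY6E (184.0) in si_NC. On the FPKM scale, the si_NC order was LY6E (56.1), LYPD3 (37.0), CD59 (15.8), PSCA (10.7), LY6D (5.27), LYPD6B (4.66), LY6K (1.51) and LYNX1 (1.29), as means of 3 libraries. The libraries of neighbours in this order overlapped for LY6D with LYPD6B and for LY6K with LYNX1, and not for the other neighbours. On this scale LY6E lay above 97.6% of genes with an FPKM above 0 in si_NC, and PSCA above 88.1%. In si_GRB2 the order was LYPD3 (57.4), LY6E (51.1), CD59 (20.1), LY6D (4.497), LYPD6B (4.41), PSCA (3.56), LYNX1 (1.98) and LY6K (1.53), with overlap only between LY6D and LYPD6B. PSCA had moved from the 4th place to the 6th and LYPD3 from the 2nd to the 1st. PSCA made up 8.08% ± 0.464 (SD, n = 3) of the summed FPKM of the 8 genes in si_NC and 2.46% ± 0.16 in si_GRB2. The sum itself was 132.3 ± 6.72 FPKM in si_NC and 144.7 ± 2.74 FPKM in si_GRB2. The share of LYPD3 was 28.0% ± 0.675 in si_NC and 39.7% ± 0.98 in si_GRB2, and that of LY6E 42.4% ± 0.442 and 35.3% ± 1.30, so that these genes made up most of the sum in both groups, in the opposite order.

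**Figure D2:**
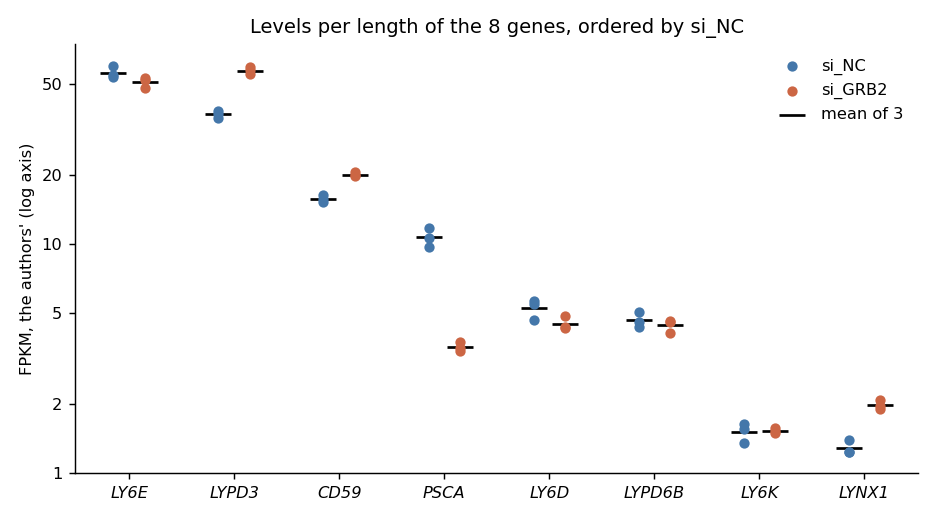
Levels of the 8 genes on the deposited FPKM scale (vertical log axis) in si_NC and si_GRB2, with genes ordered by their si_NC mean. Points are libraries and black lines are means of 3. PSCA lies at a mean of 10.7 FPKM in si_NC, above LY6D and LYPD6B, and at 3.56 FPKM in si_GRB2, below them, and LYPD3 (37.0 and 57.4) passes LY6E (56.1 and 51.1).

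PSCA, LY6K, LYNX1, LY6D and LY6E lie within 354 kb of chromosome 8 (GRCh38). PSCA lies at 142670308 to 142682725 on the plus strand, and the starts of LY6K, LYNX1, LY6D and LY6E are 29.8, 107.5, 116.2 and 347.7 kb from its start. Their log2 fold changes, in that order along the chromosome, were -1.63 for PSCA, -0.03 for LY6K, 0.58 for LYNX1, -0.27 for LY6D and -0.18 for LY6E. LYNX1 alone was positive, and it lies between LY6K and LY6D. Of 8 tested genes that start between PSCA and LY6E, these included, 3 were not members, and 1 of those passed the test. It was THEM6, a thioesterase-like protein, which fell from 95.9 ± 1.28 to 87.1 ± 3.16 CPM (log2 fold change -0.14, SE 0.0361, adjusted p = 7.43e-03). JRK, which overlaps PSCA on the opposite strand and had 154% as many reads as PSCA, had a log2 fold change of -0.06 (adjusted p = 0.49). The methods describe strand-specific libraries, but the sources used here do not say whether counting used strand. Whether the counts separate reads from the overlap of PSCA and JRK is therefore not known. Within 1 Mb on either side of the span of the 5 members, 40 other genes were tested. A smaller share of them passed the test than the 30.6% of all tested genes. Of the 40, 2 were higher, 4 lower and 34 not past the test, with a median log2 fold change of -0.05. THEM6 is 1 of the 4, and PUF60, a splicing factor below the 3 largest, is another. NRBP2, a pseudokinase gene, rose from 16.9 to 24.4 CPM (0.53, adjusted p = 2.32e-06), and EPPK1, which encodes the cytoskeletal linker epiplakin, fell by 0.27 on the log2 scale (adjusted p = 4.04e-04). The other named neighbours were GRINA (0.14, adjusted p = 1.25e-03) and GSDMD, which encodes the pore-forming gasdermin D (-0.15, adjusted p = 0.022).

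**Figure D3:**
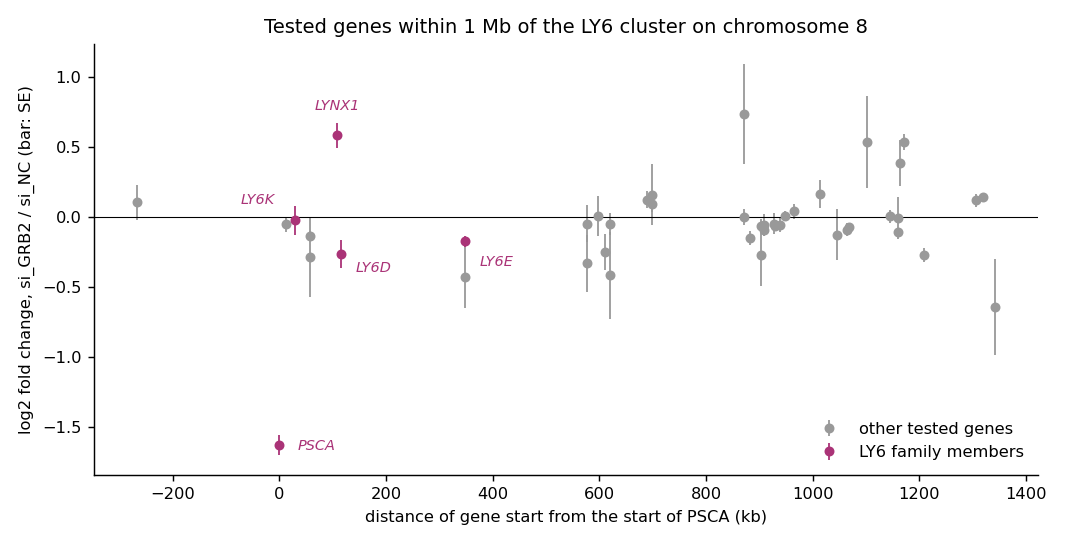
Log2 fold change (si_GRB2 against si_NC, vertical axis, bars show the SE) of tested genes by distance of their start from that of PSCA (horizontal axis, kb). Members are labelled, and the other points are the 40 neighbours. PSCA, which was chosen for its large fall, lies at -1.63, below the lowest neighbour at -0.64.

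The rest of the family was sparse in these cells. Of 27 further LY6/uPAR genes looked for, 13 were in the count table and 5 passed the filter on low counts. PLAUR, the urokinase receptor, was the only one of the 5 past the test, a smaller share than the 30.6% of all tested genes. It had 15.1, 16.6 and 16.6 CPM in si_NC and 11.5, 11.7 and 11.1 CPM in si_GRB2, which do not overlap (log2 fold change -0.49, SE 0.071, adjusted p = 6.24e-05). Its ligand, the protease PLAU, fell from 19.8 ± 0.601 to 12.2 ± 1.27 CPM (-0.70, adjusted p = 2.53e-06) and was a DEG. The values of LYPD6 (-0.05), LYPD1 (0.14), LYPD5 (-0.53) and LY6G5B (0.30) did not pass the test (adjusted p between 0.211 and 0.729).

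Known binding partners of these proteins were read from a list that also holds PLAU. Of 18 genes, 15 were in the table and 7 were tested. Of these 7, 1 was higher, 2 lower and 4 not past the test (42.9% past it, against 30.6% of all tested genes). AGR2, a secreted disulfide isomerase family protein and a ligand of LYPD3, fell from 135.5 ± 8.19 to 99.1 ± 5.26 CPM (-0.45, adjusted p = 1.47e-06), while LYPD3 was higher. LRP6, the WNT co-receptor that LYPD6 binds, rose from 16.7 ± 1.18 to 22.8 ± 1.13 CPM (0.45, adjusted p = 6.24e-05). Of the nicotinic receptor subunits that LYNX1 and LYPD6B act on, CHRNA5 did not pass the test (-0.20, adjusted p = 0.0929) and CHRNA7 had 4 reads in all.

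The other complement regulators beside CD59 gave 1 higher, 2 lower and 4 not past the test of 7 tested. Past it were 42.9%, against 30.6% of all tested genes, and the median log2 fold change of the 7 was 0.10. CD46, a membrane cofactor that inactivates complement on the cell surface, rose slightly, from 240.0 ± 5.84 to 258.0 ± 6.69 CPM (0.10, adjusted p = 0.0133). CLU, a secreted inhibitor of the attack complex, fell from 1448 ± 12.9 to 1251 ± 18.4 CPM (-0.21, adjusted p = 1.59e-06), and VTN, another such inhibitor, fell from 4.10 to 2.55 CPM (-0.68, adjusted p = 4.35e-03). CD55, which is GPI-anchored like CD59, had 69.9 ± 0.147 CPM in si_NC and 66.7 ± 1.41 CPM in si_GRB2 (adjusted p = 0.175).

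Genes that build, attach or remodel the GPI anchor were all 33 tested. Of them, 10 were higher, 6 lower and 17 not past the test (48.5% past it, against 30.6% of all tested genes). The median log2 fold change of the 33 was 0.03. The changes were small: the tested genes ran from -0.49 to 0.57 on the log2 scale. PGAP2, which remodels the lipid of the anchor, fell from 59.5 ± 0.843 to 42.3 ± 1.81 CPM (-0.49, adjusted p = 2.33e-07), and PIGH, a subunit of the enzyme of the first step, fell by 0.44 on the log2 scale (adjusted p = 4.27e-05). DPM3, a subunit of dolichol-phosphate mannose synthase, fell by 0.24 (adjusted p = 2.68e-03). PIGN, an ethanolamine phosphate transferase, rose by 0.33 (adjusted p = 2.83e-04), and ARV1 and PGAP6 rose by 0.23 each (adjusted p = 3.93e-03 and 0.0217).

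Other GPI-anchored surface proteins were read beside PSCA. Of 34 tested, 7 were higher, 11 lower and 16 not past the test (52.9% past it, against 30.6% of all tested genes). The median log2 fold change of the 34 was -0.17. DEGs were 1 higher and 3 lower, where 2.52% of all tested genes were DEGs. ALPP, placental alkaline phosphatase, fell from 477.9 ± 22.01 to 296.9 ± 12.9 CPM (-0.69, adjusted p = 8.94e-10), and NT5E, the ecto-5′-nucleotidase CD73, from 22.2 ± 0.737 to 13.2 ± 0.144 CPM (-0.75, adjusted p = 1.06e-07). FOLR1, the folate receptor, fell from 2.40 to 1.53 CPM (-0.65, adjusted p = 0.0386). CNTN1, a neural cell adhesion molecule, rose from 4.83 to 7.29 CPM (0.59, adjusted p = 1.78e-03), as did GPC6, a glypican (0.50, adjusted p = 1.43e-04), and the gene CPM, for carboxypeptidase M (0.38, adjusted p = 6.25e-04). All of these log2 fold changes lay closer to 0 than that of PSCA, the lowest among them being -0.75. PSCA was chosen for its large fall, so nothing is read from that difference.

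LY6D and LYPD3 are expressed in squamous epithelium, and a list of cornified and squamous differentiation genes was therefore read beside them. Of 17 tested, 9 were lower and 8 not past the test, with 0 higher in edgeR, DESeq2 or limma (1 higher in edgeR at an unadjusted p under 0.05). Past the test were 52.9%, against 30.6% of all tested genes, and the median log2 fold change of the 17 was -0.43. The lower ones included the basal keratin KRT5, from 17.1 ± 0.273 to 8.43 ± 0.363 CPM (-1.02, adjusted p = 2.82e-08), KRT17 (-1.09, adjusted p = 1.15e-05) and KRT13 (-0.67, adjusted p = 3.56e-04). The markers of basal and squamous epithelium fixed for a check of cell type summed to 3.23 to 3.67 FPKM in si_NC and 1.67 to 1.88 in si_GRB2. Only KRT5 of these 5 had a mean of at least 1 FPKM, with 25 reads of KRT14, 19 of TP63 and 3 of DSG3 in all. Of 7 tested markers of the line, 6 were lower, against 15.5% of all tested genes, and 1 was higher, against 15.2%. The lower ones included KRT18 (-0.55, adjusted p = 3.72e-11), EPCAM (-0.55, adjusted p = 8.94e-10) and KRT8 (-0.41, adjusted p = 1.76e-10). ERBB2 was the higher one (0.24, adjusted p = 1.14e-06). Genes with this many reads pass at small differences: KRT19, with 540570 reads in all, passed at -0.20 (adjusted p = 4.1e-06). LYPD3 was higher in the same libraries, and the part of other cells in these values was not tested.

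LY6E responds to interferon, and of 19 tested interferon-stimulated genes 2 were higher, 2 lower and 15 not past the test. Past it were 21.1%, against 30.6% of all tested genes, and the median log2 fold change of the 19 was -0.12. IFI35 fell from 4.10 ± 0.187 to 2.46 ± 0.256 CPM (-0.74, adjusted p = 1.06e-03) and OAS3, a sensor of double-stranded RNA, fell by 0.27 on the log2 scale (adjusted p = 0.0131). OASL, below 1 CPM in si_NC, was 1 of the higher genes. IFIH1, another sensor of such RNA, rose from 22.6 ± 0.856 to 25.98 ± 0.343 CPM (0.20, adjusted p = 6.31e-03).

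**Figure D4:**
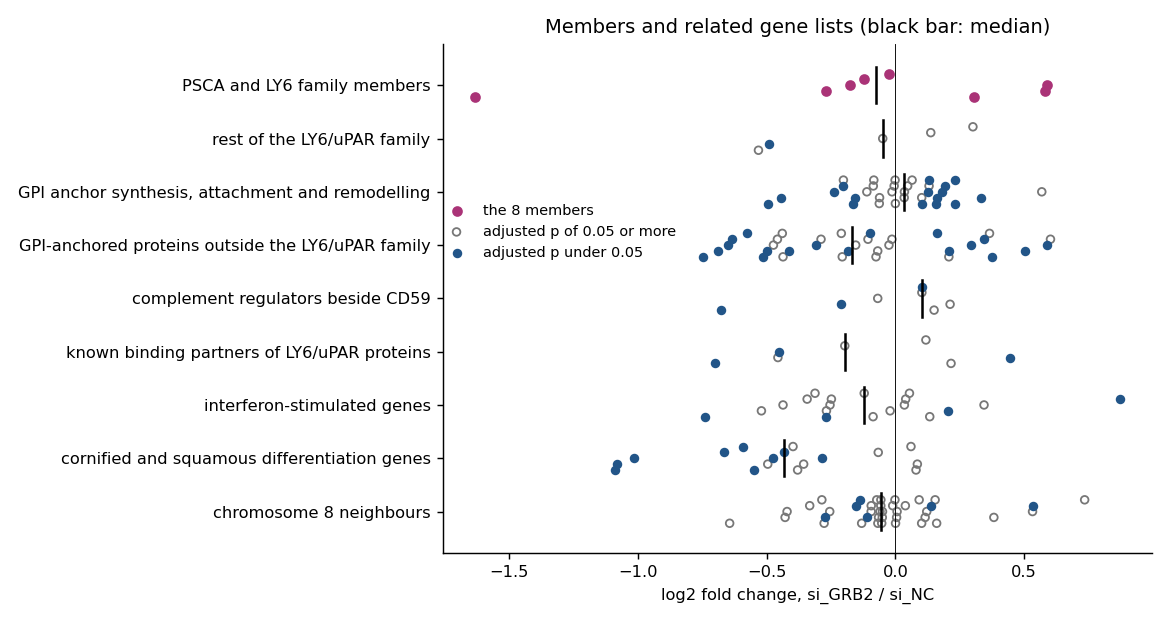
Log2 fold change (si_GRB2 against si_NC, horizontal axis) of every tested gene in the 8 members and in each list, one row per list. Filled points passed an adjusted p under 0.05, open points did not, the 8 members are drawn in 1 colour whatever their p, and black bars are medians. The row of members runs from -1.63 (PSCA) to 0.59 (LYPD3), and the row of squamous genes lies mostly below 0.

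The genes whose pattern over the 6 libraries was most like that of PSCA were found by Euclidean distance of log2 CPM, each relative to its own si_NC mean, among 10623 other genes with a mean of at least 5 CPM. They were S100A10 (distance 0.244), CCL2 (0.248), TMEM50A (0.391), a membrane protein, ADAM19 (0.518), a metalloprotease, and ITGA5 (0.571), the fibronectin receptor subunit alpha 5. The median distance over all candidates was 2.82, and the other 7 members lay at 2.35 (LY6D) to 3.83 (LYPD3). With profiles taken relative to si_NC, the distance mostly follows the difference in log2 fold change from PSCA, whose fall chose the group. Nothing is therefore read from the distances of the members. The nearest genes were chosen for this likeness and their falls are given as a description. S100A10 had 277.6 ± 8.32 CPM in si_NC and 97.9 ± 3.13 CPM in si_GRB2, and its groups did not overlap. CCL2 had 12.98 ± 0.998 CPM in si_NC and 4.18 ± 0.23 CPM in si_GRB2.

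**Figure D5:**
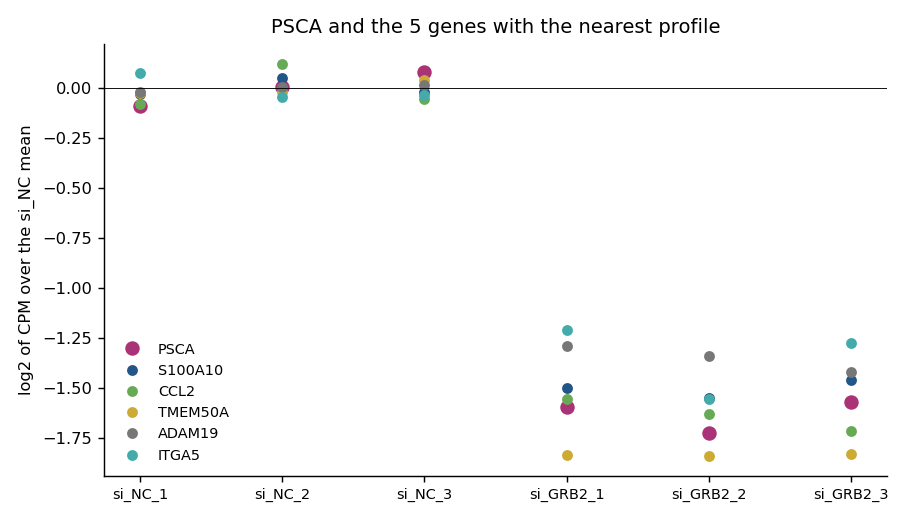
Log2 CPM relative to each gene's own si_NC mean (vertical axis) in the 6 libraries (horizontal axis), for PSCA and the 5 genes nearest to it. The si_NC libraries lie near 0 for all 6 genes, and the si_GRB2 libraries lie well below 0 for all 6, with TMEM50A (log2 fold change -1.84) lowest and ITGA5 (-1.34) or ADAM19 (-1.35) highest in each library.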

How the data were processed

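RNA of 3 si_NC and 3 si_GRB2 libraries of SK-BR-3 cells was sequenced. The authors trimmed adaptors and poor bases and aligned the reads with HISAT2 to GRCh38, per the submitters' processing notes and the methods. The authors deposited the count of uniquely mapped reads per gene, not normalized, and FPKM per gene. The counting tool, its use of strand and the annotation release are not given in the sources used here. The deposited FPKM scale with the union of each gene's GENCODE 44 exons (99.7% of identifiers matched), with the same ratio of 1.22 for all 8 genes.

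From the counts, edgeR 4.0.16 (R 4.3.3) with TMM, filterByExpr (15801 genes kept) and glmQLFit/glmQLFTest compared si_GRB2 with si_NC with no covariate, with Benjamini-Hochberg adjustment over all genes kept. The alternatives used DESeq2 1.42.0, limma 3.58.1 on log2(FPKM + 1) or log2(FPKM + 0.1), other filters and size factors, a robust fit, a replicate block and leaving out each library. Scripts were tested on simulated data. Members and lists were chosen with earlier results of these data known. Named from each list were up to 3 genes per direction with an adjusted p under 0.05, those with the largest log2 fold changes at a mean of at least 1 CPM. Also named were GRB2, the 8 members, the markers and the 5 genes most like PSCA. CD55, CHRNA5, CHRNA7, JRK, LYPD1, LYPD5, LYPD6, LY6G5B, OASL and PUF60 were named outside this rule, after their values were seen. Reads on genes numbered 24810378 to 28532480 per library, and genes with few reads are less precise.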

Additional observations from a re-analysis of the deposited data

How the results depend on the processing

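Over the 15 alternatives, no log2 fold change of GRB2 or of a member other than LY6K changed its sign, and PSCA lay between -1.68 and -1.36. On log2(FPKM + 1), with and without the limit of a mean FPKM of 1, PSCA was at -1.36 and LYNX1 at 0.38 (main values -1.63 and 0.58), and on log2(FPKM + 0.1) LYPD3 was at 0.63. A pseudocount pulls the log2 fold changes of low values towards 0 by its construction. LYPD3 moved away from 0 (main value 0.59), and the cause was not tested. LYPD3, at the limit of 1.5-fold, fell short of it with at least 10 counts in every library, without si_NC replicate 2, without si_NC replicate 3 and without si_GRB2 replicate 2. LYNX1 passed it without si_NC replicate 3, without si_GRB2 replicate 2 and without si_GRB2 replicate 3, and also on log2(FPKM + 0.1), at 0.59, where it was not a DEG. LY6D was not past an adjusted p of 0.05 in 10 alternatives: DESeq2, its size factors in edgeR, no filter, the 3 FPKM fits, and without replicate 2 or 3 of either group. LY6E was not in the 3 FPKM fits.

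The limma fits on log2(FPKM + 1), log2(FPKM + 0.1) and log2(FPKM + 1) with a mean FPKM of at least 1 gave 79, 144 and 96 DEGs in place of 398, and 1400, 1534 and 2689 genes with an adjusted p under 0.05 in place of 4838. The cause was not tested. Higher against lower were then 834 and 566, 927 and 607, and 1702 and 987, beside 2396 and 2442. In the first and second of these fits, GPI anchor genes past the test numbered 4 and 4 (16), complement regulators 0 and 0 (3, and 3 in each at an unadjusted p under 0.05) and the neighbours on chromosome 8 1 and 1 (6). Other GPI-anchored proteins numbered 10, 10 and 11 (18) and interferon-stimulated genes 2, 2 and 2 (4) in the 3 fits. A robust fit gave 7 interferon-stimulated genes, and no filter on low counts gave 2 genes of the rest of the family past the test (1). Leaving out each library gave 2 to 6 interferon-stimulated genes, with 2 without si_GRB2 replicate 3, and 5 to 9 neighbours. DEGs numbered 321 to 420, DESeq2 called 324, and 323 of those were among the 398.

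Replicate numbers are shared between groups, and the correlations of deviations for the same number were 0.232, -0.0948 and 0.0804. Libraries of unlike number were not correlated, so these values cannot settle whether the numbers pair the libraries. With a replicate block there were 459 DEGs, the 398 among them. Depth limits LY6K, LYNX1, LY6D and, in si_GRB2, PSCA, where counting error alone is 5.66% to 7.17% of the mean.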
